A study of Homo sapiens with 4 samples.

Results

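The TGF-beta and BMP signalling genes are 44 genes listed by name: ligands, latent ligand binding proteins, receptors, SMADs, antagonists, feedback inhibitors and the ID genes. They were found by Ensembl identifier and symbol among the 58522 genes of the table, and 40 of them were among the 16158 genes tested. RNA-seq was done on Ishikawa cells, an endometrial epithelial line from an adenocarcinoma, with a short hairpin RNA (shRNA) against *CDYL* (*CDYL*-sh, 2 libraries) or with a negative control shRNA (control, 2 libraries). *CDYL* encodes a chromodomain corepressor, and the study asked how its loss alters the transcriptome of endometrial cells. By the study's methods the *CDYL* hairpin was carried by a plasmid that also encodes ZsGreen and puromycin resistance, and transduced cells were selected with puromycin. Both groups are cells of 1 line. Whether libraries 1 and 2 of a group are separate cultures, and whether *CDYL*-sh 1 and 2 carry 1 hairpin or different ones, is not given in the sources used here. The p-values therefore measure only the spread between these libraries, which may be technical.

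Total counts were 27451007 and 22341852 in the *CDYL*-sh libraries and 27688447 and 26981051 in the control libraries. *CDYL* had 11.4 and 9.70 CPM (counts scaled to the depth of the library) in *CDYL*-sh libraries, against 50.4 and 53.0 CPM in control libraries. The summed level of 10 epithelial markers was 3535 and 3801 CPM in *CDYL*-sh and 3571 and 3999 CPM in control. Gene by gene, 4 of the 10 passed the edgeR test as higher and 1 as lower, against 13.6% and 12.1% of all genes tested. Of 10 fibroblast and stromal markers, 4 were at 0 in every library (*COL3A1*, *DCN*, *POSTN* and *FAP*), and the sum was 18.0 and 16.0 CPM in *CDYL*-sh and 23.8 and 26.1 CPM in control. Of 8 endothelial markers, *EMCN* was at 0 throughout, and the sum was 13.7 and 14.0 CPM in *CDYL*-sh and 9.69 and 10.1 CPM in control. Of 10 immune markers, *CD3E* and *MS4A1* were at 0 throughout, and the sum, most of it *CD68*, was 22.1 and 19.8 CPM in *CDYL*-sh and 9.05 and 13.2 CPM in control. The part of these markers in the results below was not tested. In bulk RNA, fewer cells of a type and less RNA per cell cannot be told apart.

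TGF-beta, activin and BMP ligands are secreted dimers that bring together type II and type I receptor kinases. The type I receptor phosphorylates receptor-regulated SMADs, SMAD2 and SMAD3 for TGF-beta and activin and SMAD1, SMAD5 and SMAD9 for BMP, which join SMAD4 and enter the nucleus. The inhibitory SMADs *SMAD6* and *SMAD7* and the *ID* genes are classical direct targets, and the inhibitory SMADs then restrain the receptors in a feedback loop. In the endometrium the pathway is known for its roles in decidualization, implantation and tissue repair.

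Both inhibitory SMADs and 2 of the 4 *ID* genes were lower in *CDYL*-sh cells, as were a TGF-beta ligand, 2 receptors and the corepressor *SKI*, while a single activin chain was higher. Of the 40 genes tested, 9 passed (22.5%), against 25.7% of all genes tested. Only *INHBB* was higher (2.50% of the 40, against 13.6% of all genes), and 8 of the 40 were lower, against 12.1% of all genes. The 8 were *SMAD6*, *SMAD7*, *ID1*, *ID2*, *SKI*, *TGFB1*, *TGFBR2* and *ACVR1B*. With a fold of at least 1.5 as well, 1 was higher (8.44% of all genes) and 2 were lower (5.29% of all genes), and with offsets for GC content and length 2 were higher (17.5% of all genes) and 9 lower (14.6% of all genes). The other 31 did not pass, with log2 fold changes of at most 0.80 in size. The median log2 fold change of the 40 was -0.09, beside 0.01 for all genes tested. Both *CDYL*-sh libraries lay above both control libraries for 10 genes (32.5% of all genes tested did so) and below them for 13 (31.8% of all genes did so). No call among the 9 was kept by limma on log2 FPKM (pseudocount 1), which called 0 of the 38 listed genes it tested, with 9 at an unadjusted p under 0.05. That fit called few genes of any kind, 1.44% higher and 1.52% lower of the 15574 it tested. The FPKM of each of the 9 also separated the groups in the direction of the counts. Both measures come from the same libraries and the 9 were picked on counts, so this is no separate evidence.

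**Figure D1:**
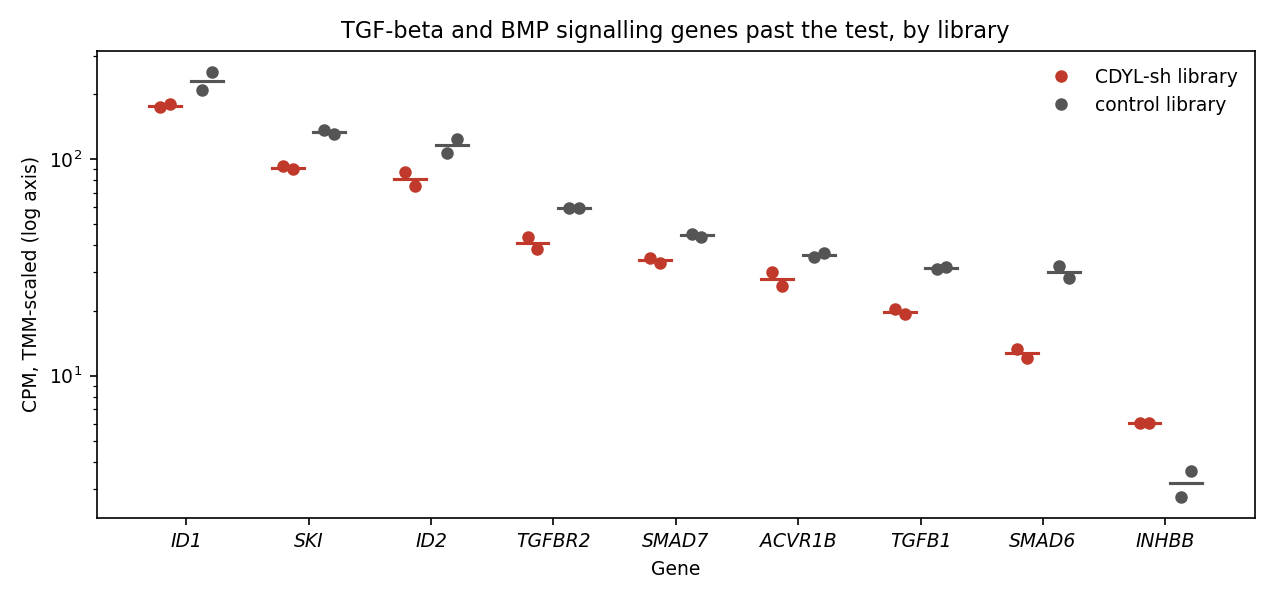
Normalised level (CPM, log axis) of the 9 genes past the test in each library, with *CDYL*-sh at the left of each pair and control at the right. Points are libraries and short lines are means of 2. The 2 groups do not overlap for any of the 9, which were picked by the test, and only *INHBB* is higher in *CDYL*-sh. Of all genes tested, 32.5% also lay apart as higher and 31.8% as lower.

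The bases just before the start of 5 of these genes are shown because they are inhibitors or direct targets of SMADs (*SMAD6*, *SMAD7*, *ID1*, *ID2*) or the only gene that was higher (*INHBB*). Each run is the 250 bases before the RefSeq gene start on GRCh38.p14, read along the gene's strand. They lie at chr15:66701986-66702235 (plus) for *SMAD6*, chr18:48950966-48951215 (minus) for *SMAD7*, chr20:31605039-31605288 (plus) for *ID1*, chr2:8681806-8682055 (plus) for *ID2* and chr2:120345886-120346135 (plus) for *INHBB*. Capitals mark GTCT, the core of the SMAD binding element, on either strand (AGAC on the other), and the GC-rich SMAD site GGCGCC.
SMAD6: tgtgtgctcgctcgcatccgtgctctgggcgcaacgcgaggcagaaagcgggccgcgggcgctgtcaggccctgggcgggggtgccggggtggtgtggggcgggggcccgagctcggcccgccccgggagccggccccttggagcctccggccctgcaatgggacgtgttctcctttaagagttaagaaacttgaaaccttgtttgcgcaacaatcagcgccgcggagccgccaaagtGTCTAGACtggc
SMAD7: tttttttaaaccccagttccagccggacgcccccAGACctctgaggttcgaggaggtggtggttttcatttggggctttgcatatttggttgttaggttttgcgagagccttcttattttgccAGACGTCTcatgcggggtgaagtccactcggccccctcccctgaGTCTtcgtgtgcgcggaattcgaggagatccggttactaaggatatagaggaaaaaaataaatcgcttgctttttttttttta
ID1: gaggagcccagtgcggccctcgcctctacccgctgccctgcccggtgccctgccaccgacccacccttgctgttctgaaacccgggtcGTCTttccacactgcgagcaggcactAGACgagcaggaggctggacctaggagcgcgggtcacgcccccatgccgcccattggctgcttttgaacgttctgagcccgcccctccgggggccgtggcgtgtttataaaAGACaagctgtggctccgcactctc
ID2: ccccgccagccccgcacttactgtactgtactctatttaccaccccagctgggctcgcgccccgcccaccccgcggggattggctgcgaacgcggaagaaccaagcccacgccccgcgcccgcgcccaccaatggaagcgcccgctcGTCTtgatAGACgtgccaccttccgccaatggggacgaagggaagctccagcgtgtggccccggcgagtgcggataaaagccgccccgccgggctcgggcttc
INHBB: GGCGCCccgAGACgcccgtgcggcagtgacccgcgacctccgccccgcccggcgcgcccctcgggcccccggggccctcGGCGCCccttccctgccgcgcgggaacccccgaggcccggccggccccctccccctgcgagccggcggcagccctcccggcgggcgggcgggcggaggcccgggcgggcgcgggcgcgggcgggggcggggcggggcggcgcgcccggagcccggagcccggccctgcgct
The SMAD6 window held GTCTAGAC, which reads the same on both strands and is made of GTCT and AGAC side by side, at bases -12 to -5 from the start. Those 8 letters occurred in 48 of 27305 RefSeq promoter windows of this length (0.2%) and in no other of the 40 listed genes that had a window. The SMAD7 window held GTCT at 4 places, 2 of them side by side as AGACGTCT, and the ID1 window at 3 places. In the ID2 window AGAC followed GTCT after a short gap. GTCT was common, in 77.6% of all windows, in 75% of those of tested genes, in 31 of the 40 listed genes and in 6 of the 8 called genes with a window. GGCGCC was in 16.1% of all windows, in 25.8% of those of tested genes, in 12 of the 40 and in 2 of the 8, *INHBB* (2 sites) and *ACVR1B* (4 sites). A match is a description of the letters and not of binding.

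Among the inhibitory SMADs, both genes were lower. *SMAD6* (ENSG00000137834, chromosome 15, 66702236 to 66782849) encodes the inhibitor that acts mainly on the BMP branch by blocking type I receptors and SMAD1. It had 13.3 and 12.1 CPM in *CDYL*-sh libraries, against 32.1 and 28.4 CPM in control libraries. Both *CDYL*-sh libraries were far below both controls, and the level was 2.37-fold lower (log2 fold change -1.25, SE 0.14, adjusted p = 8.02e-06), the largest change in size among the 40. The annotated long noncoding gene ENSG00000274995 overlaps 707 bases of the *SMAD6* gene body on the same strand. *SMAD7* (ENSG00000101665, chromosome 18, 48919853 to 48950965), which blocks both branches and recruits SMURF ligases to the receptors, had 35.1 and 33.0 CPM in *CDYL*-sh libraries and 45.3 and 43.9 CPM in control libraries. The groups did not overlap, and the log2 fold change was -0.39 (SE 0.12, adjusted p = 0.0198). This call was lost with offsets for GC content and length (log2 fold change -0.24, adjusted p = 0.0643), without *CDYL*-sh 2 and without control 1.

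The *ID* genes encode helix-loop-helix proteins that lack a DNA-binding region and hold back basic helix-loop-helix factors. All 4 had log2 fold changes below 0, and 2 passed. *ID2* had 87.6 and 74.9 CPM in *CDYL*-sh libraries, against 107 and 125 CPM in control libraries. The *CDYL*-sh values lay below both controls (log2 fold change -0.51, SE 0.11, adjusted p = 0.00313). *ID1*, the most abundant of the listed genes per length, had 174 and 180 CPM in *CDYL*-sh and 209 and 253 CPM in control. Its libraries were also apart (log2 fold change -0.38, SE 0.11, adjusted p = 0.0162), and the call was lost without control 2 or without *CDYL*-sh 1. *ID3* had 89.8 and 118.6 CPM in *CDYL*-sh and 108.6 and 129 CPM in control, so that the groups overlapped (-0.19, SE 0.13, adjusted p = 0.289). *ID4*, far less abundant, had 5.57 and 3.72 CPM in *CDYL*-sh and 5.85 and 7.01 CPM in control (-0.46, SE 0.23, adjusted p = 0.15). The annotated antisense gene *ID2-AS1* overlaps *ID2* on the other strand, and use of strand in counting is not given in the sources used here. Of the other called genes, *TGFBR2* is overlapped by the pseudogene *KLHL25P1* and *ACVR1B* by the small nuclear RNA gene *RNU6-574P*.

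Of the TGF-beta ligands, *TGFB1* was lower. *TGFB1* (ENSG00000105329, chromosome 19, 41301587 to 41353922, minus strand) had 20.4 and 19.2 CPM in *CDYL*-sh libraries, against 31.1 and 31.8 CPM in control libraries. Each group was tight and the groups lay well apart, with a 1.59-fold lower level in *CDYL*-sh (log2 fold change -0.67, SE 0.13, adjusted p = 0.000878). Its gene body is overlapped on the opposite strand by *CCDC97*, *HNRNPUL1*, *TMEM91* and ENSG00000255730, and without strand such reads cannot be told apart. *TGFB2* had 8.82 and 7.98 CPM in *CDYL*-sh and 9.76 and 7.12 CPM in control (log2 fold change -0.01), and *TGFB3* 6.89 and 5.03 CPM in *CDYL*-sh and 8.08 and 6.48 CPM in control (-0.28, adjusted p = 0.351). Both overlapped between groups. The latent TGF-beta binding proteins, which tether the latent ligand to the matrix, gave 0 calls in 4 by edgeR. Of all genes tested 25.7% were called, a share that so few genes can easily miss. These 4 had 0 at an unadjusted p under 0.05 and 0 calls by DESeq2 or limma-voom. *LTBP3*, the most abundant of them per length, had 60.5 and 55.6 CPM in *CDYL*-sh and 63.2 and 62.4 CPM in control (log2 fold change -0.11, SE 0.11, adjusted p = 0.482). *LTBP1* was at 0.09, *LTBP2* at 0.34 and *LTBP4* at -0.18 on the log2 fold change scale.

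**Figure D2:**
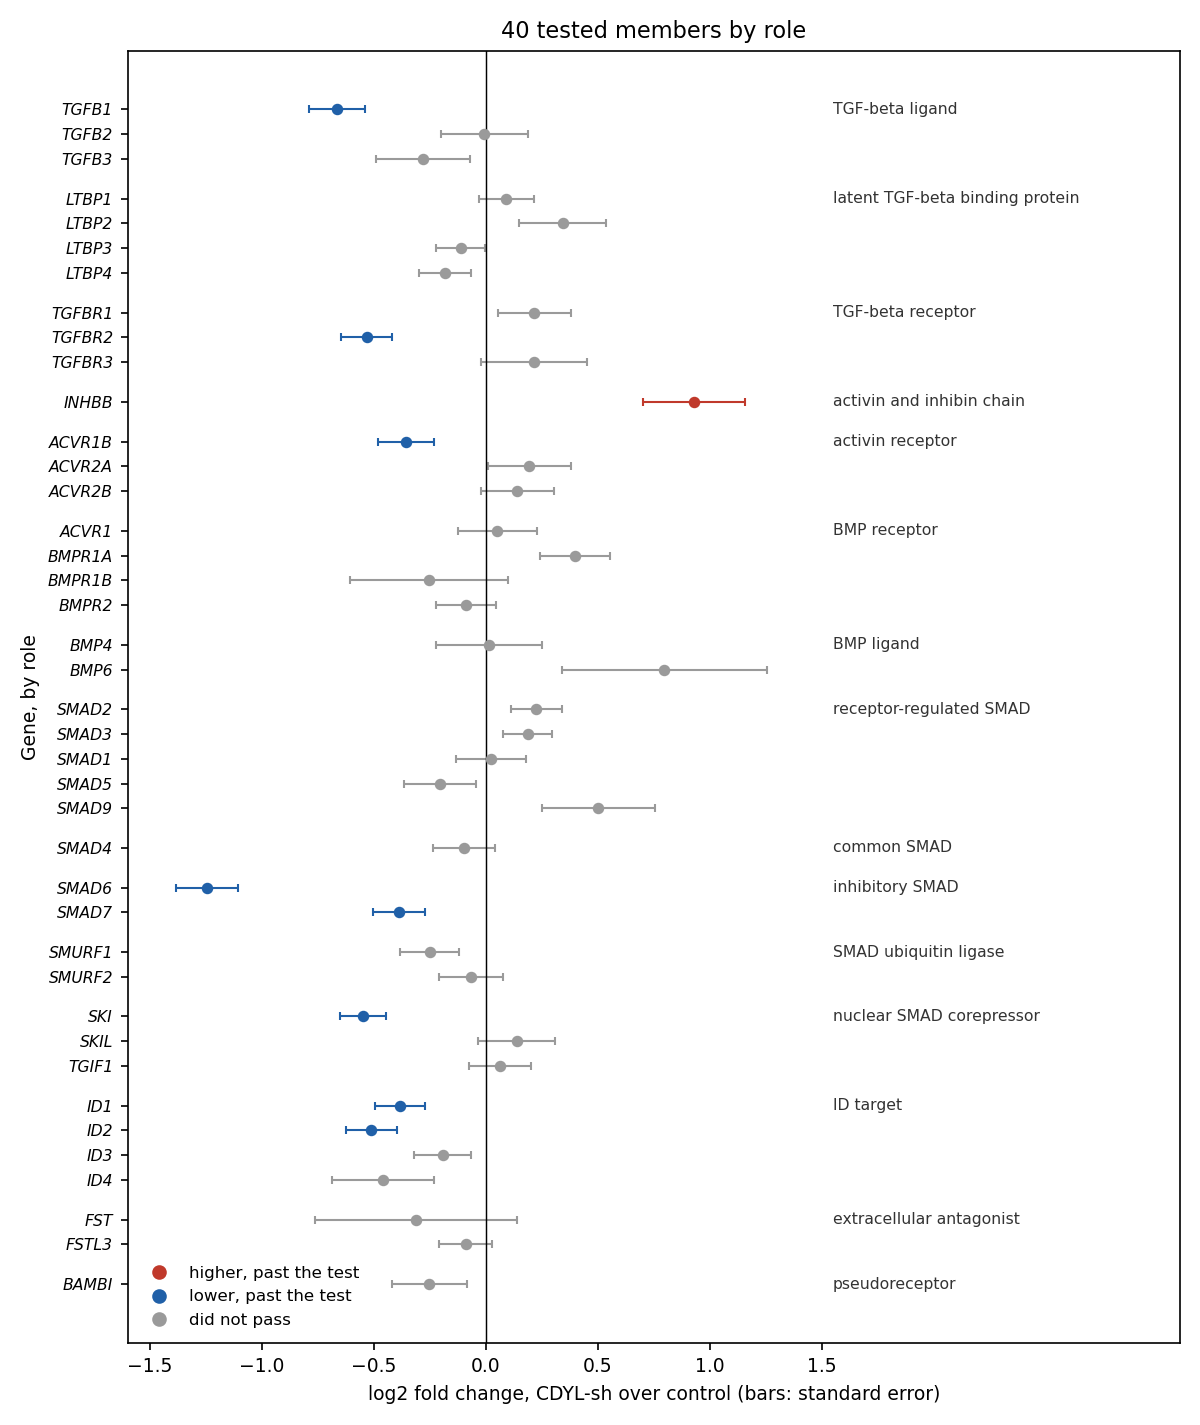
Log2 fold change of *CDYL*-sh over control (horizontal axis) with its standard error for the 40 tested genes, arranged by role. Red is higher past the test, blue lower past the test and grey did not pass: *SMAD6* lies lowest at -1.25 and *INHBB* highest at 0.93.

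Among the TGF-beta receptors the type II receptor was lower. *TGFBR2* (ENSG00000163513, chromosome 3, 30606601 to 30694142), the kinase that binds the ligand first, had 43.7 and 38.4 CPM in *CDYL*-sh libraries, against 59.3 and 59.7 CPM in control libraries. The control libraries were nearly equal and both *CDYL*-sh values lay below them (log2 fold change -0.53, SE 0.11, adjusted p = 0.00236), though the call was lost without *CDYL*-sh 2. *TGFBR1*, the type I partner, had 19.96 and 21.3 CPM in *CDYL*-sh and 21.1 and 14.4 CPM in control (0.22, adjusted p = 0.354). *TGFBR3*, the co-receptor betaglycan, had 4.07 and 4.08 CPM in *CDYL*-sh and 3.66 and 3.35 CPM in control (0.22, adjusted p = 0.542). Neither passed, and *TGFBR1* passed as higher only in the fit without control 1.

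In the activin arm, a ligand chain was higher and a receptor lower. *INHBB* (ENSG00000163083, chromosome 2, 120346136 to 120351803) encodes the beta B chain of activin B and inhibin B. It had 6.07 and 6.07 CPM in *CDYL*-sh libraries, against 2.76 and 3.62 CPM in control libraries. The *CDYL*-sh libraries were equal at this precision and above both controls, 1.90-fold higher (log2 fold change 0.93, SE 0.23, adjusted p = 0.00612). *INHBA*, the beta A chain, had 0 counts in all 4 libraries, which allows up to 0.109 and 0.134 CPM in *CDYL*-sh and 0.108 and 0.111 CPM in control at a floor of 3 counts (counting error only). *ACVR1B*, the type I activin receptor also called ALK4, had 30.2 and 25.9 CPM in *CDYL*-sh and 35.3 and 36.8 CPM in control. The groups did not overlap (log2 fold change -0.36, SE 0.12, adjusted p = 0.0421), but the call was lost in 10 of 16 alternative fits, among them DESeq2, GC and length offsets (adjusted p = 0.13), and those without control 1, control 2 or *CDYL*-sh 2. The type II receptors *ACVR2A* (0.19) and *ACVR2B* (0.14), shared by activin and BMP, did not pass.

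Ligands, receptors and receptor-regulated SMADs of the BMP branch gave no call. Of 9 tested, edgeR called 0 (25.7% of all genes were called), with 1 at an unadjusted p under 0.05, and DESeq2 and limma-voom also called 0. Limma on log2 FPKM called 0 of the 7 it tested, but it called no listed gene in any role. With GC and length offsets 2 were lower, *BMPR2* and *SMAD5* (14.6% of all genes were lower in that fit). *BMPR1A*, a type I receptor, was the one at an unadjusted p under 0.05 and had 16.6 and 17.1 CPM in *CDYL*-sh and 14.2 and 11.3 CPM in control. Its libraries did not overlap, yet it missed the threshold (log2 fold change 0.40, SE 0.16, adjusted p = 0.0697) and passed only without control 1. *ACVR1* (0.05), *BMPR1B* (-0.25) and *BMPR2* (-0.09) lay closer to 0 or had large errors. Among the ligands, *BMP4* had 3.61 and 4.31 CPM in *CDYL*-sh and 3.70 and 4.11 CPM in control, with overlapping libraries (0.02, SE 0.24). *BMP6* had 1.04 and 1.54 CPM in *CDYL*-sh and 0.90 and 0.57 CPM in control (0.80, SE 0.46, adjusted p = 0.215). *BMP2* had 5 and 0 counts in *CDYL*-sh and 0 in both control libraries, and *BMP7* had at most 2 counts in any library. *NOG*, the BMP antagonist noggin, had 7 and 6 counts in *CDYL*-sh and 2 and 2 counts in control. These 3 and *INHBA* were too low to be tested.

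The receptor-regulated SMADs gave 0 calls in 5 by edgeR, against 25.7% of all genes tested, a share that so few genes can easily miss. They had 0 at an unadjusted p under 0.05, and 0 calls by DESeq2 and limma-voom. *SMAD2*, the most abundant of them per length, had 71.1 and 70.8 CPM in *CDYL*-sh and 66.2 and 55.1 CPM in control. The *CDYL*-sh libraries lay above both controls, and the difference did not pass (log2 fold change 0.23, SE 0.11, adjusted p = 0.158). *SMAD3* was at 0.19 (SE 0.11), *SMAD1* at 0.02 (SE 0.16), *SMAD5* at -0.21 (SE 0.16) and the scarce *SMAD9* at 0.50 (SE 0.25). With GC and length offsets *SMAD3* passed as higher, and *SMAD5* and *SMAD4* passed as lower. *SMAD4*, the common partner of both branches, had 21.96 and 20.9 CPM in *CDYL*-sh and 25.1 and 20.8 CPM in control, which overlapped (log2 fold change -0.10, SE 0.14, adjusted p = 0.642).

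Of the listed corepressors, ubiquitin ligases, extracellular antagonists and pseudoreceptor, *SKI* alone passed. *SKI* (ENSG00000157933, chromosome 1, 2227388 to 2310213), a nuclear corepressor that binds SMADs and silences TGF-beta targets, had 92.7 and 90.2 CPM in *CDYL*-sh libraries, against 137 and 130 CPM in control libraries. Each pair was close and the pairs were well apart (log2 fold change -0.55, SE 0.10, adjusted p = 0.000827). Its relative *SKIL* (0.14, SE 0.17) and the corepressor *TGIF1* (0.06, SE 0.14) did not pass. *SMURF1*, a ubiquitin ligase for SMADs and receptors, had 34.0 and 26.4 CPM in *CDYL*-sh and 36.7 and 35.3 CPM in control (-0.25, SE 0.13, adjusted p = 0.176), and *SMURF2* was at -0.07. *FSTL3*, an activin-binding antagonist, had 52.3 and 56.5 CPM in *CDYL*-sh and 51.9 and 63.9 CPM in control (-0.09, SE 0.12). *FST*, follistatin, was scarce, with at most 1.39 CPM in any library. *BAMBI*, a pseudoreceptor without kinase activity, had 9.46 and 9.38 CPM in *CDYL*-sh and 10.8 and 11.6 CPM in control, apart but short of the threshold (-0.25, SE 0.17, adjusted p = 0.285).

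Per length, the genes spanned a wide range of levels. *ID1* averaged 255 FPKM in *CDYL*-sh and 330 FPKM in control, *ID2* 144 FPKM in *CDYL*-sh and 216 FPKM in control, and *ID3* 111 FPKM in *CDYL*-sh and 126 FPKM in control. *LTBP3* followed at 62.3 FPKM in *CDYL*-sh and 62.0 FPKM in control. The order of *ID1* above *ID2* above *ID3* held in each *CDYL*-sh library and in each control library. The neighbours below them were closer, and *SKI* and *TGIF1*, with control means of 25.1 and 25.03 FPKM, had overlapping control values. At the other end, 9 genes averaged under 1 FPKM in control, and 13 averaged at least 10 FPKM. *TGFBR2* averaged 9.59 FPKM in *CDYL*-sh and 13.7 FPKM in control, and *TGFB1* 8.25 FPKM in *CDYL*-sh and 13.04 FPKM in control. *INHBB* averaged 2.11 FPKM in *CDYL*-sh and 1.10 FPKM in control. For 8 tested genes that did not pass, among them *TGFBR3*, *TGFB2*, *SMAD1* and *SKIL*, the FPKM means ran opposite to the counts. *TGFBR3* averaged 0.725 FPKM in *CDYL*-sh and 1.175 FPKM in control, where the libraries had 1.66 and 0.69 FPKM. Estimated counts of 9 listed genes were not whole in some library, none of them a called gene.

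**Figure D3:**
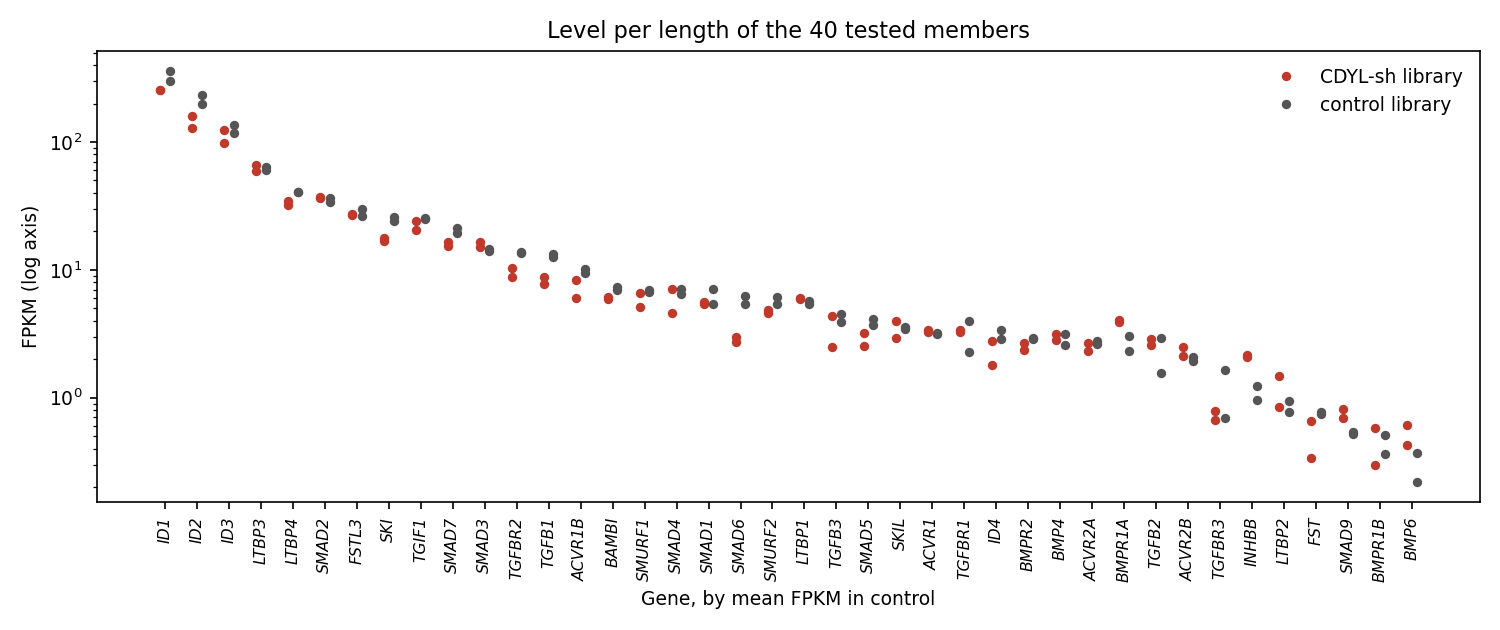
FPKM (log axis) of the 40 tested genes in each library, ordered by the control mean, with *CDYL*-sh libraries left and control libraries right of each tick. *ID1*, *ID2* and *ID3* lie above every other gene in all 4 libraries.

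Set by branch, the calls fell in both, and the shares are to be read against the 13.6% higher and 12.1% lower of all genes tested. The TGF-beta and activin branch had 19 genes tested, 1 higher and 4 lower (*TGFB1*, *TGFBR2*, *ACVR1B* and *SKI*), with a median log2 fold change of -0.01. The BMP branch had 14 tested, 0 higher and 3 lower (*SMAD6*, *ID1* and *ID2*), with a median of -0.14. *BMPR1A* was its only gene above 0 at an unadjusted p under 0.05, and DESeq2 also called 0 higher. The 7 genes shared by both branches had 1 lower (*SMAD7*) and a median of -0.10. With ligands, receptors and receptor-regulated SMADs alone, the median was 0.09 over 10 genes of the TGF-beta and activin branch and 0.02 over 9 genes of the BMP branch, and the lower calls were 3 and 0. With GC and length offsets those lower calls were 2 and 2 (14.6% of all genes were lower in that fit). The *ID* genes and *SMAD6* were listed under BMP, and the TGF-beta and activin branch was given no target genes, so that the branches differ in the roles they hold. The difference between the branches was not tested. The BMP median moved to -0.27 with GC and length offsets and to -0.027 without control 1, while the TGF-beta and activin median was -0.052 without *CDYL*-sh 1 and 0.065 without *CDYL*-sh 2.

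**Figure D4:**
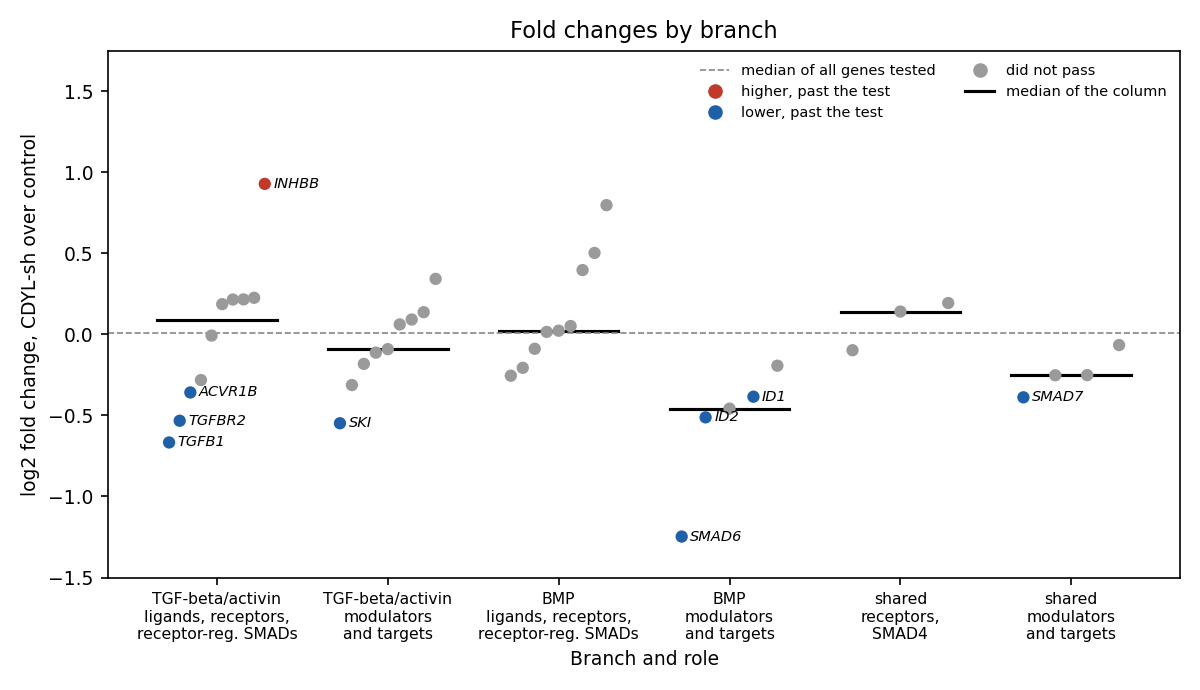
Log2 fold change (*CDYL*-sh over control, vertical axis) of each tested gene by branch and role, with the median of each column as a black line and the median of all genes tested (0.01) dashed. Among BMP ligands, receptors and receptor-regulated SMADs no point is coloured, and *SMAD6*, *ID1* and *ID2*, plotted with the modulators and targets, are the coloured points of that branch.

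The lower genes were also richer in GC. Transcripts of the 8 lower genes had a median GC content of 57.5% (42.5% to 63.6%), and those of the 31 that did not pass 43.2%. Of 19 tested genes with a GC content of at least 50%, 6 were lower, against 2 of 21 below 50%. Over all genes, 16.2% were lower at or above 50% GC and 8.48% below it. The part of GC content in the calls was not tested beyond the fit with offsets, in which 7 of the 9 calls held.

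The other genes of the pathway showed where else calls fell. Of 131 tested in 8 lists, 25 were higher and 29 lower (41.2% called, against 25.7% of all genes). Some of these genes had values in an earlier account of these data, so that their direction is not independent evidence. The BMP target genes had 5 lower and 0 higher of 11, with 0 higher at an unadjusted p under 0.05, 0 by DESeq2 and 1 higher with GC and length offsets. *MSX1*, a homeobox factor of the endometrial epithelium, had 193 and 196 CPM in *CDYL*-sh and 349 and 333 CPM in control (log2 fold change -0.81, adjusted p = 2.69e-05). *DLX5*, another homeobox factor, was at -1.18, the factor *GATA2* at -0.74 and *TNFRSF11B*, the decoy receptor osteoprotegerin, at -1.01. The TGF-beta target genes went both ways, 6 higher and 8 lower of 27. *TAGLN*, an actin-binding protein of smooth muscle, had 4.07 and 2.95 CPM in *CDYL*-sh and 15.3 and 13.98 CPM in control (-2.05). *IGFBP3*, an insulin-like growth factor carrier, was at -0.99, while *CDKN1A*, the cell cycle inhibitor p21, rose by 1.41 and *ANGPTL4*, a lipase inhibitor, by 1.53 on the log2 scale.

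The counts of the remaining lists stand beside 13.6% higher and 12.1% lower of all genes tested. The list of other ligands had 2 higher and 3 lower of 12. It counts *BMP1*, a protease and not a ligand of this family, among the lower (log2 fold change -0.34, adjusted p = 0.0450). With GC and length offsets *BMP1* fell short (adjusted p = 0.0838). *GDF15*, a stress-induced ligand, had 180 and 201 CPM in *CDYL*-sh and 79.3 and 92.0 CPM in control (log2 fold change 1.15, adjusted p = 1.89e-06), and *INHBE* was at 0.79, *BMP8A* at -0.87 and *GDF1* at -0.62. *GDF1* fell short with GC and length offsets (-0.29, adjusted p = 0.0896) and without *CDYL*-sh 1, *INHBE* without control 1 or *CDYL*-sh 2, and *BMP8A* without *CDYL*-sh 2. Of 5 other receptors *ACVR1C* passed as higher (1.07 and 0.86 CPM in *CDYL*-sh, 0.32 and 0.08 CPM in control), and the call was lost without control 2 or *CDYL*-sh 1. DESeq2 called 0 of the 5, with 1 at an unadjusted p under 0.05, but it gave *ACVR1C* no adjusted p, so its 0 calls do not bear on that gene. Of 12 other antagonists 2 were lower, *CHRDL2* (-0.83) and *FSTL1* (-0.34). Both calls were lost without control 1, *CDYL*-sh 1 or *CDYL*-sh 2, and that of *CHRDL2* also with DESeq2. Genes that hold, process or activate latent TGF-beta had 5 higher and 3 lower of 14. The integrin chain *ITGB8*, which binds latent TGF-beta, had 8.71 and 9.43 CPM in *CDYL*-sh and 2.84 and 1.96 CPM in control (1.91), its partner *ITGAV* was at 0.58 and *LRRC32*, which holds latent TGF-beta at the cell surface, at 0.59, whereas *ITGB5* was at -0.38 and was lost without control 1 or *CDYL*-sh 2. Among 30 intracellular modulators 10 were higher and 3 lower, with *WWP1*, a ubiquitin ligase, at 0.99, *TAB2*, an adaptor of the kinase TAK1, at 0.90, the deubiquitinase *USP9X* at 0.76 and the deubiquitinase *USP11* at -1.08. SMAD transcription partners had 1 higher and 5 lower of 20, with *ZNF423* at -0.98, the acetyltransferases *CREBBP* at -0.53 and *EP300* at -0.51, and *RBL1*, the pocket protein p107, at 0.84. *EP300* was lost without control 1 or *CDYL*-sh 2, and *CREBBP* without *CDYL*-sh 2.

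**Figure D5:**
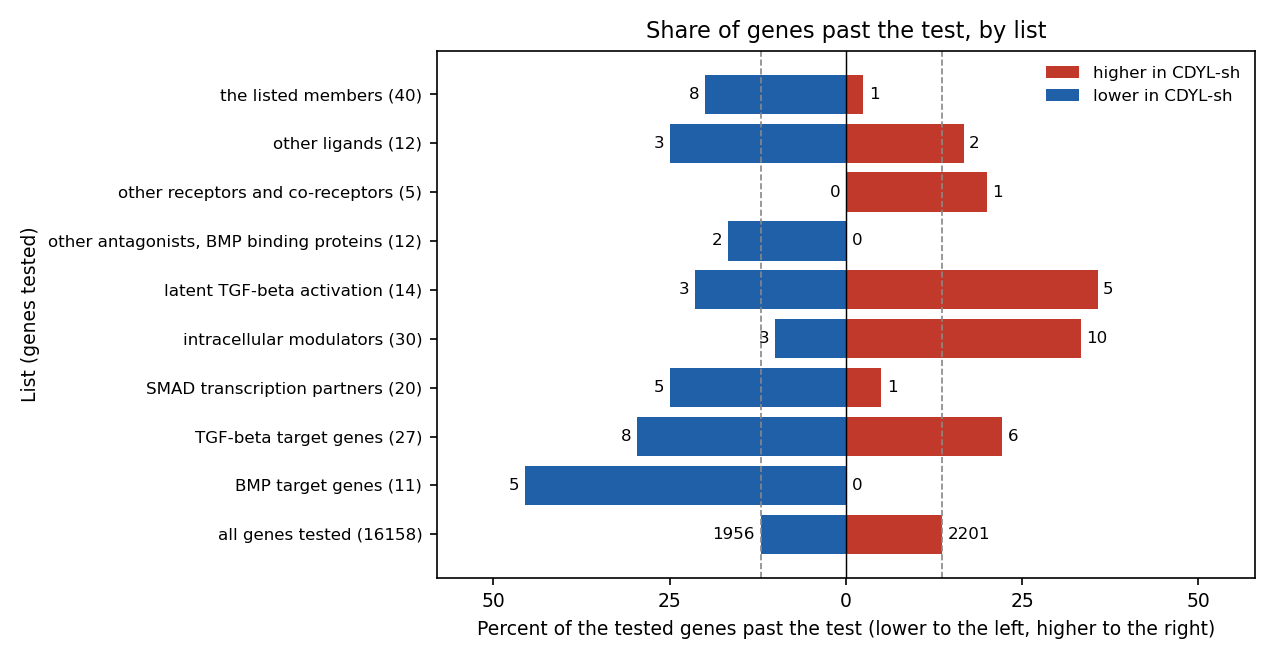
Percent of the tested genes in each list that were lower (bars to the left) or higher (bars to the right) past the test in *CDYL*-sh. Bars carry their gene counts, and parentheses give how many genes were tested. Dashed lines mark the share over all genes tested (12.1% lower, 13.6% higher), and the BMP target genes reach 45.5% lower.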

How the data were processed

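Libraries were made from total RNA of *CDYL*-sh and control Ishikawa cells. Per the submitters' processing notes, TopHat, RSEM and edgeR were used with GRCh38.p10, and the annotation release and use of strand are not given in the sources used here. The deposited table gives, per gene and library, an expected count (estimated by the authors, often not whole) and an FPKM, which the authors normalized for length and depth. Symbols came from GENCODE 44 for 98.1% of identifiers, and 289 loci have none.

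Expected counts were rounded, filtered with filterByExpr (minimum count 10), scaled by TMM and tested with edgeR 4.0.16 (quasi-likelihood, glmQLFit and glmQLFTest, R 4.3.3), *CDYL*-sh against control with no covariate. Adjustment was by Benjamini-Hochberg across the 16158 tested genes, with a threshold of 0.05. CPM are TMM-scaled, and FPKM serve to compare genes. The common dispersion was 0.00971.

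The members and lists were chosen with earlier results of these data known. All 44 members are accounted for, with values per library for those past the test and, in roles with none, for the most abundant by FPKM. Up to 4 genes past the test were named per other list, by adjusted p, with *BMP1* named besides as a protease. Promoters came from RefSeq (GRCh38.p14), with 40 of 44 members matched.

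Alternatives were other normalizations and filters, DESeq2 1.42.0, limma 3.58.1 (voom, and log2 FPKM with a pseudocount of 1 or 0.1 for genes with a mean of at least 0.5 FPKM), a fold of at least 1.5, a replicate block, offsets for GC content and length (mgcv 1.9.3), and each library left out. Where a left-out library leaves 1 in its group, that sample is taken to vary as the other group does.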

Additional observations from a re-analysis of the deposited data

How the results depend on the processing

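Of the 9 calls among the listed genes, none changed sign in any of 16 alternative fits. The 16 fits reuse the libraries on which the 9 were picked, so the kept sign is no separate evidence. Limma on FPKM, log2-transformed after adding 1 or 0.1, called 0 listed genes higher and 0 lower (9 and 10 at an unadjusted p under 0.05). It called 461 and 507 of 15574 genes in all, and 12 and 13 of the other pathway genes. Its branch medians were -0.049 and -0.051 (TGF-beta and activin), and -0.20 for BMP after adding 0.1. GC and length offsets gave 2 listed genes higher (17.5% of all genes were higher in that fit) and a BMP median of -0.27. A fold of at least 1.5 left 2 genes lower, *SMAD6* and *TGFB1*. Ligands, receptors and receptor-regulated SMADs alone had medians of 0.090 (TGF-beta and activin) and 0.023 (BMP).

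With each library left out, calls over all genes ranged from 2082 (without *CDYL*-sh 2) to 4006, listed genes higher from 1 to 3 (3 without control 1, with *TGFBR1* and *BMPR1A*), listed genes lower from 6 to 7, and other pathway genes from 33 (without *CDYL*-sh 2) to 52. The TGF-beta and activin median ranged from -0.052 to 0.065, so its sign was not fixed, and the BMP median from -0.15 to -0.027 (without control 1).

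A replicate block gave 5393 calls over all genes (17.4% of those tested higher and 16% lower). It called 1 listed gene higher and 9 lower, *ID3* being added. With GC and length offsets as well it gave 2 higher, 12 lower and a BMP median of -0.28. Over all genes that last fit called 20% higher and 17% lower. Deviations of equally numbered libraries correlated at r = 0.03 across 16158 genes, which are not independent, so the numbers were not taken to pair the libraries.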
